A study of Mus musculus with 30 samples.

Results

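The genes described here are 10 genes of microglia and other phagocytes, Cd68, Cd52, Csf1r, Aif1, C1qa, C1qb, Tyrobp, Fcer1g, Ms4a6b and Cx3cr1, chosen by the gene symbol that the array annotation gives a probe set. They are 10 of 12394 genes measured by probe sets with 1 symbol, and 15 of the 20393 such probe sets. RNA came from primary cultures of mouse telencephalon dissected at embryonic day 12.5. The telencephalons of 6 Xbp1 -/- embryos (knockout, KO) were pooled into 1 culture and those of 4 Xbp1 +/+ embryos (wild type, WT) into another, from crosses of Xbp1 +/- parents. Each genotype had 3 groups of 5 dishes, each dish on 1 array: a basal group without BDNF and a group given 100 ng/ml BDNF for 24 h, both harvested on day 4 in vitro, and a group given BDNF for 48 h and harvested on day 5. Cells were plated at low density in serum-free medium with B27 supplement. A change at 48 h therefore holds 48 h of BDNF and an extra day in culture, which cannot be told apart. With 1 pool per genotype, the p-values rest on dish-to-dish spread alone.

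Microglia are the resident macrophages of the brain and enter it early in embryonic life, while other macrophages settle in the meninges and around vessels. They depend on the receptor Csf1r for survival, tag material for uptake with complement C1q, sense it through receptors that signal by the ITAM adaptors Tyrobp and Fcer1g, and digest it in lysosomes, where the glycoprotein Cd68 sits. Xbp1 is the factor that switches on genes of protein folding and secretion under stress of the endoplasmic reticulum, and BDNF is a neurotrophin that acts on neurons through the receptor TrkB.

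All levels below are log2 signals relative to the median of the same array, so that 0 is the level of the median probe set and each unit is a doubling. Levels of different probe sets are not comparable, because probes differ in binding. Differences are log2 differences ± SE from limma, with p-values adjusted over all tested genes by the Benjamini-Hochberg method at a threshold of 0.05, and a gene is said to have risen or fallen where it passed. Of the 10 genes, 7 passed the filter on low signal and were among the 7436 genes tested. Aif1, Fcer1g and Cx3cr1 lay below it, at mean levels of -0.50, -0.51 and -1.28 against a filter bound of -0.40, and were tested only in a fit of all 12394 genes. Cd68 passed at a mean level of -0.23 through its BDNF groups, as its basal means of -1.29 in KO and -0.88 in WT lay below the bound. Without the filter its rises against basal were called at both times in both genotypes (limma, adjusted p from 1.15e-07 to 0.0129). Array medians ran between 81.9 and 138.5 intensity units, and the Gapdh 3'/5' ratio, a measure of RNA integrity, was 2.57 to 2.94 in basal dishes, 2.60 to 3.05 at 24 h and 2.17 to 2.68 at 48 h over both genotypes. Its part in the 48 h results was not tested. Neuron markers were bright, with 9 of 10 tested and summed signals of 263 to 314 array medians in KO dishes and 284 to 339.8 in WT dishes. Of 11 measured microglial identity genes 3 were bright enough to be tested. Of the 4 Xbp1 probe sets, 1420011_s_at was higher in KO basal dishes by 1.09 and 1437223_s_at by 0.22 (limma, adjusted p = 7.84e-09 and 0.00646), and the other 2 were not called. Where in the gene the deletion lies is not given, so these probes do not check the genotype.

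Cd68 went up with BDNF in both genotypes while no other of the 10 genes was called higher against basal at either time, and Cd52 went down in both. In KO dishes Cd68 was 1.75-fold above basal at 24 h and 2.67-fold at 48 h, and in WT dishes 2.06-fold and 3.66-fold. C1qb and Aif1 were higher in KO than in WT at each time and C1qa at 24 h and 48 h, whereas Cd68 was lower in KO at 24 h and 48 h. The C1qb calls came from its brightest probe set alone, and those of Aif1 from the fit without the filter. The C1qa call at 48 h was lost without the filter.

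Cd68 encodes a heavily glycosylated membrane protein of lysosomes and late endosomes that marks phagocytically active cells. The gene lies at chr11:69664213-69666170 (GRCm38.p6). Its dishes read -0.97, -1.91, -1.29, -1.27 and -1.02 in KO basal, -1.06, -0.37, -0.43, 0.03 and -0.60 in KO 24 h, and 0.09, 0.29, 0.26, 0.11 and -0.14 in KO 48 h. In WT the basal dishes read -0.46, -0.66, -0.78, -1.56 and -0.96, the 24 h dishes 0.01, 0.08, 0.36, 0.20 and 0.15, and the 48 h dishes 0.54, 0.94, 1.16, 1.06 and 1.23. The WT groups did not overlap in any pair, and every WT dish at 48 h lay above every dish of the other 5 groups. In KO the 48 h dishes lay above all basal dishes, while the 24 h group overlapped both. Groups were likewise apart for 18.7% of all tested genes in KO at 48 h against basal, and in WT for 10.5% at 24 h against basal, 19.7% at 48 h against basal and 7.84% at 48 h against 24 h.

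In KO dishes Cd68 rose by 0.80 ± 0.19 at 24 h (limma, adjusted p = 0.00466, n = 5) and by 1.42 ± 0.19 at 48 h (adjusted p = 9.84e-07). Over all tested genes, 5.96% were called higher in KO at 24 h and 19.4% at 48 h, and in WT 8.04% and 20.5%. In WT dishes it rose by 1.04 ± 0.19 at 24 h (limma, adjusted p = 1.83e-04) and by 1.87 ± 0.19 at 48 h (adjusted p = 2.57e-09). The 48 h level exceeded the 24 h level by 0.61 ± 0.19 in KO (limma, adjusted p = 0.0350) and by 0.83 ± 0.19 in WT (adjusted p = 0.00379), steps in which 7.49% and 8.32% of all tested genes were called higher. The KO step between 24 h and 48 h lost its call with each of several other settings, among them a fit without the filter (0.61, adjusted p = 0.0721). With the 48 h dishes split, replicates 1 and 2 gave a Cd68 change of 1.48 ± 0.265 in KO and 1.63 ± 0.265 in WT, and replicates 3 to 5 gave 1.37 ± 0.22 in KO and 2.04 ± 0.22 in WT, all called. Both parts were set against the same basal dishes, and the split was chosen with earlier results of these data known. These calls, and those with the same split below, are therefore not independent support.

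The KO minus WT difference of Cd68 was -0.41 ± 0.19 in basal dishes (limma, adjusted p = 0.103), -0.65 ± 0.19 at 24 h (adjusted p = 0.00991) and -0.86 ± 0.19 at 48 h (adjusted p = 6.73e-04). Cd68 was thus lower in KO at both BDNF times, and the 48 h groups did not overlap. Of all tested genes 17.8% were called lower in KO at 24 h and 14.4% at 48 h, and 16.7% had groups apart at 48 h. The 48 h difference was -0.55 with replicates 1 and 2 of 48 h alone, without a call. The test of the difference in response gave -0.24 ± 0.27 at 24 h (limma, adjusted p = 0.9997) and -0.46 ± 0.27 at 48 h (adjusted p = 0.790). Its 95% interval at 48 h ran from -0.996 to 0.086, so the data do not show that the Cd68 response differed between genotypes. Of all tested genes, 0.0941% were called in that comparison at 24 h and 0.134% at 48 h.

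**Figure D1:**
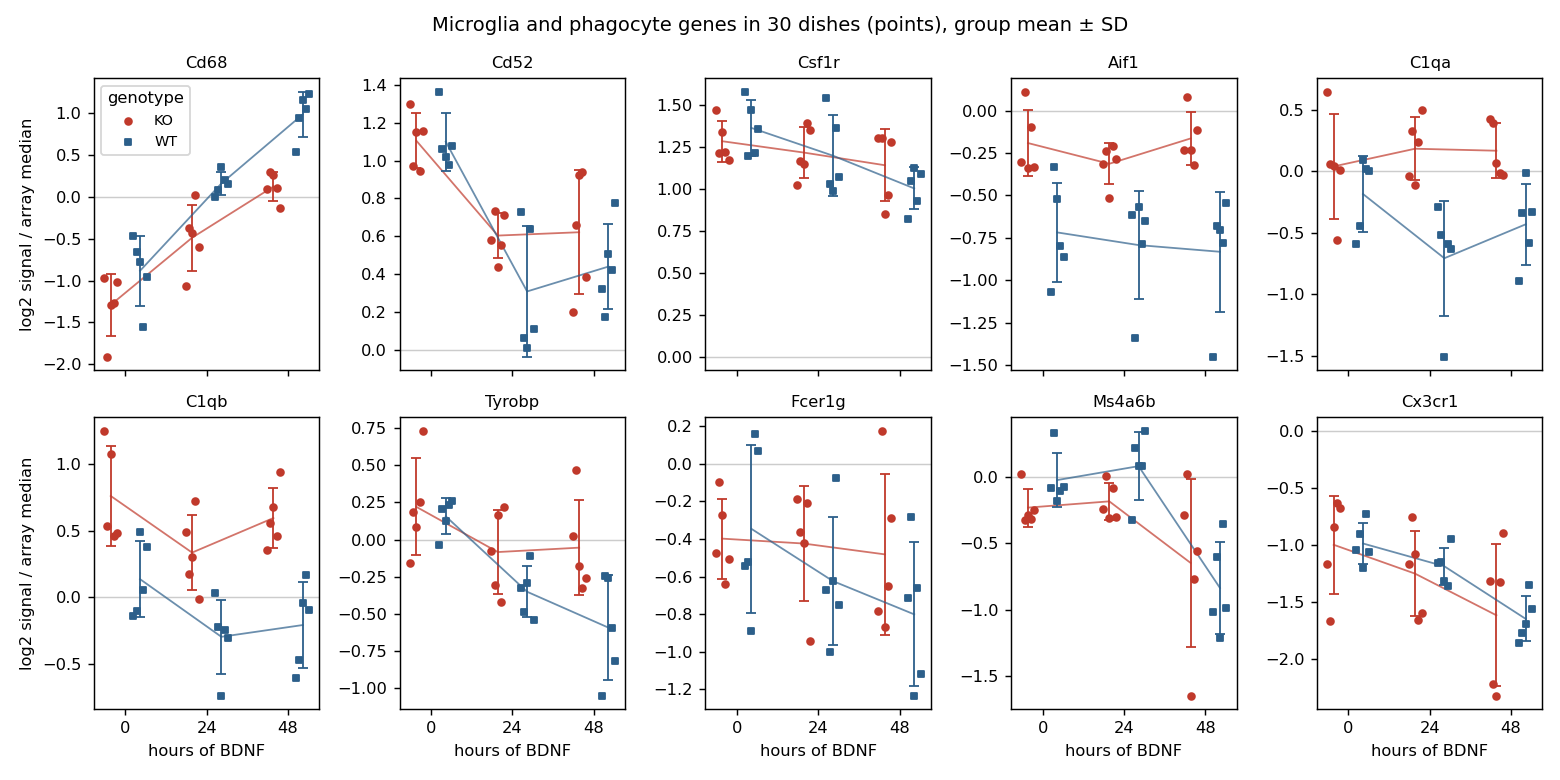
Level of each of the 10 genes in every dish, as log2 signal relative to the array median, with KO left of WT at each time and a bar at the mean of 5 dishes. Cd68 steps upward with time in both genotypes, with WT 48 h dishes between 0.54 and 1.23, while the panels of the other genes show flat or lower levels after BDNF.

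The promoter of Cd68 is shown because Cd68 is the gene that moved apart from the rest, beside that of Ms4a6b, which moved the other way in WT. The windows are the 250 bases before the annotated start in RefSeq, on GRCm38.p6, at chr11:69666171-69666420 on the minus strand for Cd68 and at chr19:11518309-11518558 on the plus strand for Ms4a6b. Capitals mark matches to TGANTCA, the AP-1 motif, which reads the same on both strands.
Cd68: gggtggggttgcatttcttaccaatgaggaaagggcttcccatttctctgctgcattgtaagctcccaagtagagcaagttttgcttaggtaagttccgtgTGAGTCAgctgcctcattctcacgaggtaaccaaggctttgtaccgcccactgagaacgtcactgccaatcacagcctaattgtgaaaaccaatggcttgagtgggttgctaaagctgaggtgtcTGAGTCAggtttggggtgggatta
Ms4a6b: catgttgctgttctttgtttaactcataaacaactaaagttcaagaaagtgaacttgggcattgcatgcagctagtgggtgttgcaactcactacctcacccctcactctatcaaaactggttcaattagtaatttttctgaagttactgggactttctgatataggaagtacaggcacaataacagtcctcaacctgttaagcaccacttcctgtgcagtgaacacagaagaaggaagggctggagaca
The Cd68 window held 2 matches, 149 and 24 bases before the start, and the Ms4a6b window none. Of 32544 promoter windows of this length, 6.73% held at least 1 match and 0.341% at least 2. Windows were at hand for 6 of the 10 genes off the chromosome of Csf1r, and those of Fcer1g, C1qb, Cx3cr1 and Aif1 had no AP-1 match. TGACG and GAGGAA were searched on both strands. The motif TGACG was in the Cd68 and C1qb windows and in 17.8% of all windows. GAGGAA, a form of site for the myeloid factor PU.1, was in the Cd68, C1qb and Aif1 windows and in 23.4% of all windows. The shorter run GGAA was not searched. The motif CACGTG was in none of the 6 and in 6.03% of all. A match is a run of letters and not a site of binding.

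The genes on either side of Cd68 did not share its pattern. Mpdu1, a gene for glycosylation at chr11:69656697-69662649, rose by 0.37 ± 0.11 in KO at 48 h (limma without the filter, adjusted p = 0.0189), and its difference was 0.01 ± 0.11 in WT at 48 h. Eif4a1, which encodes a translation initiation helicase at chr11:69666936-69672423, differed by -0.01 ± 0.07 in KO and 0.01 ± 0.07 in WT at 48 h, neither called.

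Across the 30 dishes, the 8 tested genes whose level followed Cd68 most closely by Pearson correlation were Nrip3 (0.926), Ercc1 (0.921), Pde1a (0.919), Plk3 (0.912), Creb3 (0.912), Lgi1 (0.911), Ecel1 (0.910) and Ermp1 (0.910). None of these is one of the 10 genes. They are described by likeness alone, and the 30 dishes include the BDNF steps that all of them share. Pde1a, a calcium-dependent phosphodiesterase, was 1.30 above basal in KO at 48 h and 1.55 in WT, and Ecel1, an endopeptidase-like protein of neurons, 1.65 in KO and 1.54 in WT. The same search for Csf1r gave another set, led by the lysozyme gene Lyz2 (0.793), the phagosomal metal transporter Slc11a1 (0.784) and the lysozyme gene Lyz1 (0.766), followed by Ppp1r37 (0.631), Cxxc5 (0.622), Stmn1 (0.622), Nfkbia (0.622) and Ppp1r18 (0.617).

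Among the surface receptors and adaptors, Csf1r and Tyrobp fell in WT, and no difference in response between genotypes was called. Csf1r, the receptor for Csf1 and Il34, read 1.47, 1.22, 1.34, 1.22 and 1.17 in KO basal dishes, 1.02, 1.17, 1.15, 1.39 and 1.35 in KO 24 h, and 1.30, 1.30, 0.85, 0.96 and 1.28 in KO 48 h. In WT it read 1.58, 1.19, 1.47, 1.22 and 1.35 in basal dishes, 1.54, 1.03, 0.99, 1.36 and 1.07 at 24 h, and 0.82, 1.05, 1.12, 0.93 and 1.09 at 48 h. All 5 WT dishes at 48 h lay below all WT basal dishes, as these groups were apart for 19.7% of all tested genes, and the KO groups overlapped. The difference was -0.36 ± 0.11 in WT at 48 h (limma, adjusted p = 0.0102), a 1.28-fold fall, against -0.14 ± 0.11 in KO at 48 h (adjusted p = 0.335). Csf1r has 3 probe sets, and the WT fall rests on 1419872_at, for which the annotation gives no transcript accession. The others, 1423593_a_at and 1419873_s_at, differed by -0.25 ± 0.18 and -0.16 ± 0.25 in WT at 48 h, neither called, and 1419873_s_at by 0.63 ± 0.25 in KO at 48 h (limma over all probe sets, adjusted p = 0.0880). With the mean of the 3 the WT difference was -0.26, and with values as deposited it was -0.048, neither called.

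Tyrobp, also called DAP12, carries the ITAM motif for receptors such as Trem2. In KO it read -0.15, 0.18, 0.08, 0.26 and 0.73 in basal dishes, -0.08, -0.30, 0.16, -0.42 and 0.22 at 24 h, and 0.02, 0.47, -0.18, -0.33 and -0.26 at 48 h. In WT it read -0.04, 0.21, 0.12, 0.23 and 0.26 in basal dishes, -0.33, -0.48, -0.29, -0.11 and -0.54 at 24 h, and -1.05, -0.24, -0.26, -0.59 and -0.82 at 48 h. Both WT groups with BDNF lay wholly below the WT basal dishes, and the KO groups overlapped. In WT 10.5% of all tested genes were apart from basal at 24 h and 19.7% at 48 h. The fall in WT was -0.75 ± 0.17 at 48 h (limma, adjusted p = 7.80e-04), and -0.51 ± 0.17 at 24 h (adjusted p = 0.0371), where the call was lost without the filter (adjusted p = 0.0708) and without any of 8 of the 10 dishes. In KO the differences were -0.30 ± 0.17 at 24 h and -0.27 ± 0.17 at 48 h (limma, adjusted p = 0.256 and 0.224). The KO difference at 48 h was -0.48 with a call for 48 h replicates 3 to 5 and 0.026 for replicates 1 and 2, and the difference in response was 0.47 ± 0.24 (limma, adjusted p = 0.715).

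Cx3cr1, the receptor for the neuronal ligand Cx3cl1, and Fcer1g, the common gamma chain of Fc receptors, were dim. Cx3cr1 averaged -1.62 ± 0.62 in KO 48 h and -1.0 ± 0.43 in KO basal dishes, and -1.65 ± 0.20 in WT 48 h and -0.99 ± 0.18 in WT basal dishes (SD, n = 5). In the fit without the filter the WT difference of -0.66 ± 0.23 was called (limma, adjusted p = 0.0388), as 10.8% of all genes there were called lower, and the KO difference of -0.62 ± 0.23 was not (adjusted p = 0.0669). Its other probe set lay at the floor of -3.32 in 1 to 4 of the 5 dishes of each group. Fcer1g differed by -0.08 ± 0.23 in KO and by -0.46 ± 0.23 in WT at 48 h, neither called.

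Cd52 and Ms4a6b encode small proteins of the leukocyte surface, the first a lipid-anchored glycopeptide and the second a member of the MS4A family of membrane-spanning proteins. Cd52 read 1.30, 0.97, 1.15, 0.95 and 1.15 in KO basal dishes, 0.58, 0.73, 0.44, 0.55 and 0.71 in KO 24 h, and 0.20, 0.66, 0.92, 0.94 and 0.38 in KO 48 h. In WT it read 1.36, 1.06, 1.02, 0.97 and 1.08 in basal dishes, 0.73, 0.06, 0.01, 0.64 and 0.11 at 24 h, and 0.32, 0.17, 0.51, 0.42 and 0.78 at 48 h. In both genotypes every dish with BDNF lay below every basal dish. Groups were apart for 9.32% of all tested genes in KO at 24 h and 18.7% at 48 h, and in WT for 10.5% and 19.7%. Cd52 fell by 0.50 ± 0.14 at 24 h and by 0.48 ± 0.14 at 48 h in KO (limma, adjusted p = 0.0188 and 0.0102). In WT it fell by 0.79 ± 0.14 and by 0.66 ± 0.14 (limma, adjusted p = 1.68e-04 and 4.91e-04). It was the only one of the 10 genes called lower in KO, and the response did not differ by test between genotypes, at 0.29 ± 0.20 and 0.18 ± 0.20 (limma, adjusted p = 0.936 and 0.920). The KO call at 24 h was lost without basal replicate 1 (-0.45) or 24 h replicate 3 (-0.46), and with values as deposited the calls were lost in KO at both times and in WT at 48 h. The KO call at 48 h was also lost with 48 h replicates 3 to 5 alone (-0.36).

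Ms4a6b read 0.02, -0.32, -0.28, -0.32 and -0.25 in KO basal dishes, -0.24, 0.01, -0.31, -0.08 and -0.30 in KO 24 h, and -0.29, 0.02, -1.65, -0.77 and -0.56 in KO 48 h. In WT it read -0.09, 0.33, -0.18, -0.10 and -0.07 in basal dishes, -0.33, 0.22, 0.08, 0.08 and 0.35 at 24 h, and -1.02, -0.60, -1.22, -0.36 and -0.99 at 48 h. The WT 48 h dishes lay below all other WT dishes, and the KO 48 h dishes were spread from -1.65 to 0.02. In WT at 48 h, 19.7% of all tested genes were apart from basal and 7.84% from 24 h. Ms4a6b fell in WT at 48 h by 0.81 ± 0.20 against basal (limma, adjusted p = 0.00177) and by 0.92 ± 0.20 against 24 h (adjusted p = 0.00250), a step in which 5.58% of all tested genes were called lower. The KO difference at 48 h was -0.42 ± 0.20 (limma, adjusted p = 0.113), and it depended on which dishes were used. It was -0.76 with a call for 48 h replicates 3 to 5 and 0.097 for replicates 1 and 2, and it was also called with array weights (-0.51) and without KO 48 h replicate 2 (-0.59). The difference in response at 48 h was 0.40 ± 0.28 (limma, adjusted p = 0.854).

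The C1q genes and Aif1 showed no called change with BDNF in either genotype. C1qa differed by 0.14 ± 0.20 and 0.13 ± 0.20 in KO at 24 h and 48 h, and by -0.52 ± 0.20 and -0.25 ± 0.20 in WT (limma, adjusted p from 0.0794 to 0.715). C1qb differed by -0.43 ± 0.18 and -0.17 ± 0.18 in KO and by -0.43 ± 0.18 and -0.34 ± 0.18 in WT (limma, adjusted p from 0.0931 to 0.501). Some of these were called under other settings. The C1qa difference in WT at 24 h was called without WT basal replicate 1 (-0.62), without WT 24 h replicate 1 (-0.63) and with array weights (-0.69), and the C1qb differences at 24 h were called with array weights (-0.47 in KO and -0.56 in WT). With 48 h replicates 1 and 2 alone the C1qb difference in WT at 48 h was -0.67 and called. Aif1, known as IBA1, an actin-bundling protein of macrophages, differed by -0.12 and 0.03 in KO and by -0.07 and -0.11 in WT at 24 h and 48 h (SE 0.16 each).

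**Figure D2:**
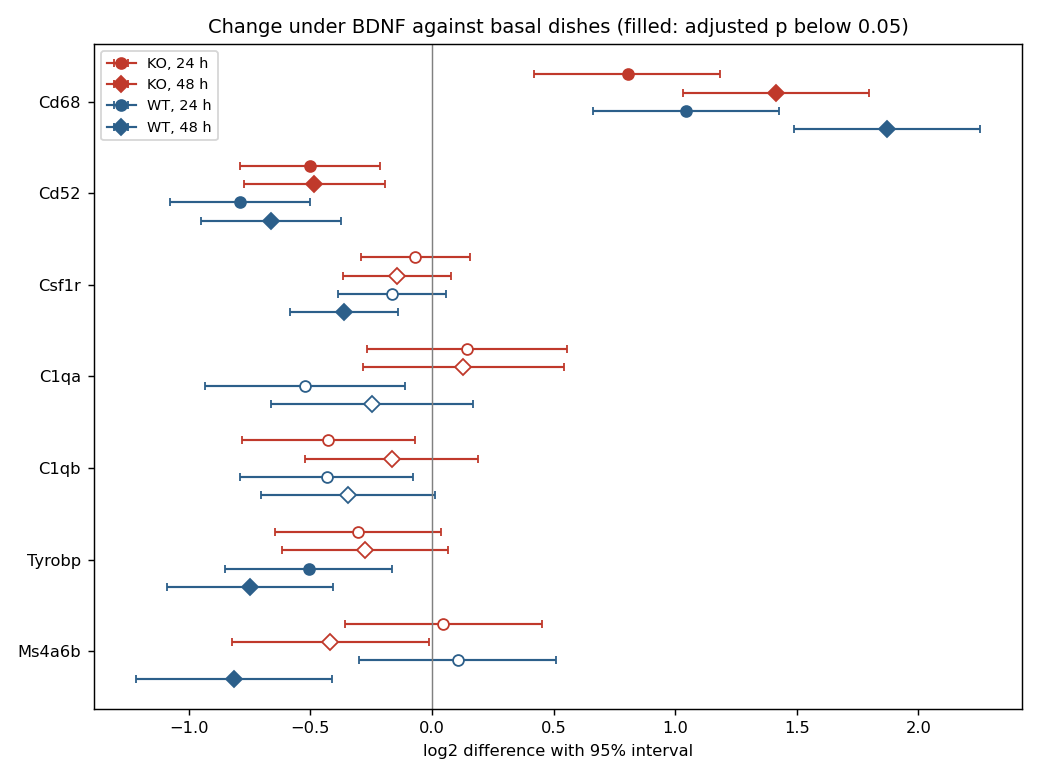
Log2 difference from basal with 95% interval for the 7 tested genes at 24 h and 48 h of BDNF, in KO and in WT, with filled symbols where the adjusted p was below 0.05. Among filled symbols Cd68 is the only gene to the right of zero, up to 1.87 in WT at 48 h, and the filled symbols of Cd52, Tyrobp, Csf1r and Ms4a6b lie to the left.

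Counted over the 6 tested genes other than Cd68, 4 were called lower and 0 higher in WT at 48 h, where 15.7% of all tested genes were called lower and 20.5% higher. In WT at 24 h 2 were called lower, against 6.40% of all tested genes. In KO the count was 1 of 6 lower at 24 h and 1 of 6 at 48 h, against 5.55% and 9.47% of all. Groups did not overlap for 4 of the 6 in WT at 48 h, against 19.7% of all tested genes. The median difference of the 6 in WT at 48 h was -0.51, against 0.02 over all tested genes, and in KO it was -0.22, against 0.04. In the fit without the filter, all 9 genes other than Cd68 had a 48 h difference below 0 in WT, and 7 of 9 in KO. No difference in response between genotypes was called for any of the 7. In such bulk samples, fewer cells of a type and less RNA per cell cannot be told apart.

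The contrast with Cd68 was tested by subtracting Cd68 from every gene within each dish. Every gene had the same Cd68 values subtracted, and the fit took the shared spread as known, so p-values of this contrast are too small. All 6 other genes changed less than Cd68 at 48 h, with differences in KO between -1.90 for Cd52 and -1.29 for C1qa and in WT between -2.69 for Ms4a6b and -2.12 for C1qa on the log2 scale (limma, adjusted p at most 7.00e-07). As 99.2% of all tested genes in KO and 99.7% in WT also changed less than Cd68, this share is that of genes at large, and the large rise of Cd68 is what the contrast measures. From 24 h to 48 h in KO, 5 of the 6 changed less than Cd68 and C1qb was not called, against 74.2% of all genes. Of those 5 calls, C1qa lost its call without any of 4 of the 10 dishes, Cd52 without any of 4 and Tyrobp without any of 5 (adjusted p up to 0.0891, 0.104 and 0.143).

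Dish-to-dish variation around the group means gave no called link between Cd68 and any other of the 10 genes. Its 9 residual correlations over the 30 dishes ran between -0.32 and 0.30, and after adjustment over 45 pairs none was called, by a permutation test within groups. Among the other genes, 24 of 36 pairs were positive with a median of 0.084, and none was called after adjustment. The pair with the closest link was Csf1r with C1qa (Pearson's r = 0.532, Spearman's rho = 0.533, permutation p = 0.00523 and 0.00549, adjusted p = 0.235 and 0.247), with r = 0.501 without the 2 dishes farthest out.

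Between genotypes, the C1q genes stood out. C1qb, at chr4:136880126-136886200, and C1qa, at chr4:136895916-136898844, encode chains of the first complement component. C1qb read 1.25, 0.54, 1.08, 0.46 and 0.49 in KO basal dishes, against -0.14, -0.10, 0.49, 0.06 and 0.38 in WT basal dishes. At 48 h it read 0.35, 0.56, 0.68, 0.46 and 0.94 in KO, against -0.60, -0.47, -0.04, 0.17 and -0.09 in WT. The 48 h groups were apart, as for 16.7% of all tested genes, and in basal dishes 2 KO values lay within the WT range.

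C1qb was higher in KO by 0.63 ± 0.18 in basal dishes, 0.63 ± 0.18 at 24 h and 0.80 ± 0.18 at 48 h (limma, adjusted p = 0.00726, 0.00713 and 6.96e-04). These calls come from 1434366_x_at, a probe set whose suffix marks probes that can bind other transcripts. The other C1qb probe sets were also higher in KO at each time, by 0.24 to 0.34 for 1417063_at and by 0.59 to 0.71 for 1437726_x_at, without a call.

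C1qa read -0.04, 0.33, -0.11, 0.24 and 0.50 in KO 24 h dishes, against -0.29, -0.52, -1.51, -0.59 and -0.63 in WT 24 h dishes. The groups were apart, as for 17.7% of all tested genes, and C1qa was higher in KO by 0.89 ± 0.20 (1.85-fold, limma, adjusted p = 0.00120). At 48 h it was higher by 0.60 ± 0.20 (limma, adjusted p = 0.0293), a call lost without the filter (adjusted p = 0.0628) and without any 1 of 4 of the 10 dishes (KO replicates 1 and 2 and WT replicates 1 and 4, lowest 0.48), and in basal dishes the difference was 0.22 ± 0.20 (adjusted p = 0.435).

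Aif1 read -0.30, 0.11, -0.34, -0.10 and -0.33 in KO basal dishes, against -1.07, -0.34, -0.52, -0.80 and -0.87 in WT basal dishes. At 48 h it read -0.23, 0.08, -0.23, -0.32 and -0.11 in KO, against -1.45, -0.68, -0.70, -0.78 and -0.55 in WT. The KO dishes lay above all WT dishes at 24 h and 48 h, while 1 KO basal dish, at -0.336, lay just below the highest WT basal dish, at -0.335. The genotypes were apart for 17.7% of all tested genes at 24 h and 16.7% at 48 h, a set that leaves Aif1 out. In the fit without the filter Aif1 was higher in KO by 0.53 ± 0.16, 0.48 ± 0.16 and 0.67 ± 0.16 in basal, 24 h and 48 h dishes (limma, adjusted p = 0.0224, 0.0406 and 0.00392). That fit called 6.45%, 6.03% and 6.79% of all genes higher in KO at these times. Tyrobp was higher in KO at 48 h by 0.54 ± 0.17 (limma, adjusted p = 0.0173), and not once KO 48 h replicate 2 (0.41) or WT 48 h replicate 1 (0.42) was left out. Csf1r, Cd52, Ms4a6b, Fcer1g and Cx3cr1 did not differ by test between genotypes at any time, with differences between -0.27 and 0.32. Under other settings Cd52 was called higher in KO at 24 h with values as deposited (0.46) and without WT 24 h replicate 1 (0.40), and Ms4a6b at 48 h with 48 h replicates 1 and 2 alone (0.68).

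**Figure D3:**
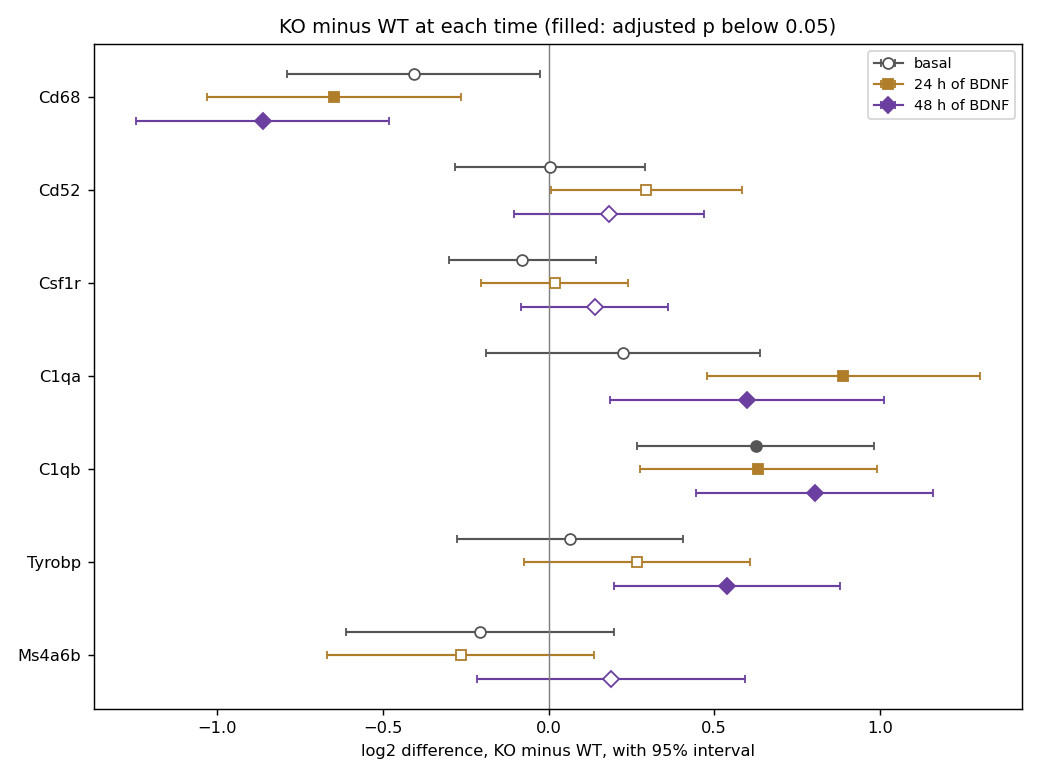
KO minus WT log2 difference with 95% interval for the 7 tested genes in basal, 24 h and 48 h dishes, with filled symbols where the adjusted p was below 0.05. Cd68 lies left of zero and moves from -0.41 to -0.86, whereas C1qb lies between 0.63 and 0.80 at all times.

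Over the 6 tested genes other than Cd68, 1 was called higher in KO in basal dishes, 2 at 24 h and 3 at 48 h, and 0 lower. Over all tested genes the shares called higher were 9.20%, 8.43% and 9.68%. Genes of meningeal and mesenchymal cells also differed between genotypes. All 6 tested of that list of 8 were higher in KO at each time, and the summed signal of the 8 was 154 to 206 array medians over KO dishes and 71.1 to 103 over WT dishes. The part of such cells in the higher C1q, Aif1 and Tyrobp signal was not tested.

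**Figure D4:**
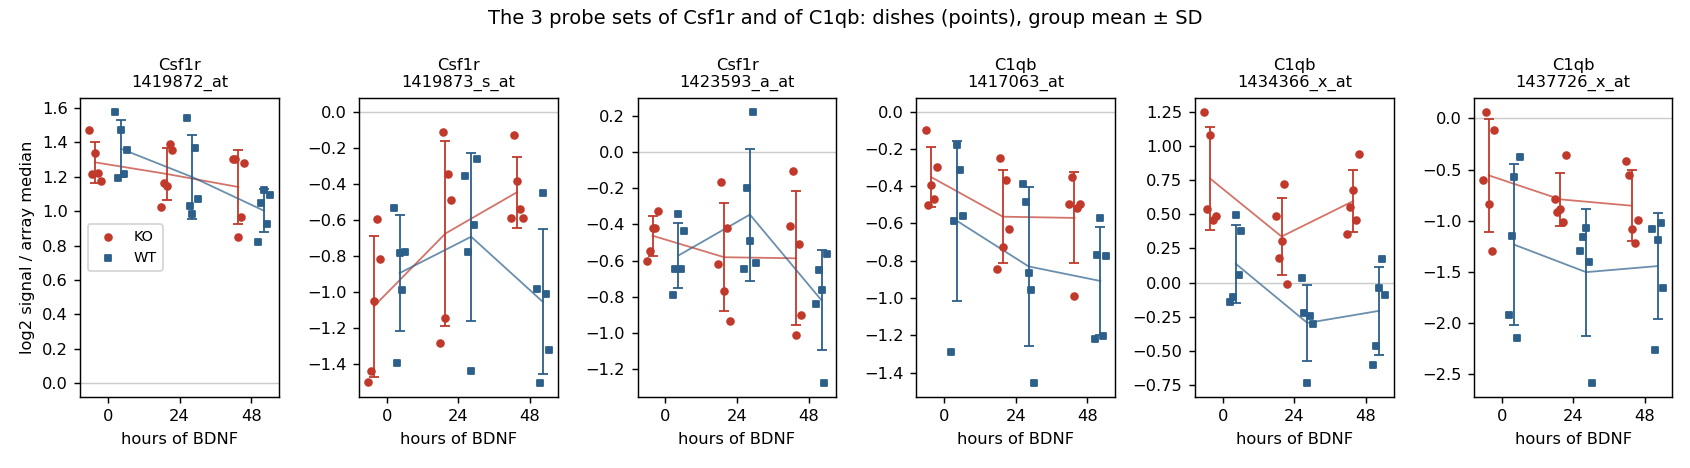
The 3 probe sets of Csf1r and the 3 of C1qb, as log2 signal in every dish with the mean ± SD of 5 dishes in each group, with KO left of WT. The 3 probe sets of Csf1r and of C1qb lie at separate levels, and by their mean over all dishes only 1434366_x_at of C1qb and 1419872_at of Csf1r lie above the filter bound of -0.40.

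Other genes of macrophages were followed from a list. Of 29 measured genes in a list of other myeloid genes, 11 were tested, and in WT at 48 h 4 fell and 1 rose. The fallen ones were the endotoxin co-receptor Cd14 (-0.65), the NADPH oxidase subunit Cyba (-0.60), the macrophage receptor Adgre1 (-0.51), and the lysosomal membrane gene Laptm5 (-0.37), with adjusted p from limma of 0.00301, 3.31e-04, 1.26e-04 and 0.0300. The actin regulator Coro1a rose by 0.21 (limma, adjusted p = 0.0288). Of all tested genes, 15.7% were called lower and 20.5% higher in WT at 48 h. In KO at 48 h Cd14 and Adgre1 fell by 0.56 and by 0.36 (limma, adjusted p = 0.0125 and 0.00572), and Coro1a rose by 0.41 (adjusted p = 1.01e-04). In KO against WT at 48 h 5 of the 11 were higher and 1 lower, led by Cyba at 1.04 (limma, adjusted p = 4.07e-08). The shares over all tested genes were 9.68% higher and 14.4% lower.

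The 3 tested microglial identity genes were Tmem119, Olfml3 and Fcrls. In WT at 48 h Tmem119 and Olfml3 fell by 0.72 and by 0.68 (limma, adjusted p = 1.98e-04 and 7.15e-04), and in KO Tmem119 fell by 0.62 (adjusted p = 0.00142). All 3 were higher in KO at 48 h, led by Olfml3 at 1.22 (limma, adjusted p = 8.80e-08), as were 9.68% of all tested genes. The part of meningeal and mesenchymal cells in these differences was not tested. P2ry12, a purinergic receptor that defines microglia, was named after its values were seen: it averaged -3.18 in KO and -3.32 in WT basal dishes, at or near the floor.

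Relatives of Ms4a6b in the MS4A family fell in WT too. Ms4a7, Ms4a6d and Ms4a6c, the 3 tested of 10 measured, fell in WT at 48 h by 0.75, by 0.56 and by 0.54 (limma, adjusted p = 7.16e-05, 0.00329 and 0.00938), and in KO Ms4a6c fell by 0.54 (adjusted p = 0.0109). None of the 3 was called for a difference in response between genotypes. Of all tested genes, 15.7% were called lower in WT and 9.47% in KO at 48 h. Ms4a7 is also in a list of 10 genes of border macrophages, in which the chemokine gene Pf4 was the other one tested. In KO against WT at 48 h both were higher, Ms4a7 by 0.67 and Pf4 by 0.99 (limma, adjusted p = 2.79e-04 and 0.0303), as were 9.68% of all tested genes. Among 17 measured Fc receptor and ITAM genes outside the 10, Fcgr2b and Sirpa were tested and neither was called at 48 h. At 24 h both were called lower in KO than in WT, with differences of -0.96 and -0.21, as were 17.8% of all tested genes. Among 3 tested genes of monocytes and granulocytes, Lyz1, Lyz2 and Prtn3 fell in WT at 48 h by 0.72, by 0.53 and by 0.46 (limma, adjusted p = 0.00477, 0.00449 and 0.0432), and none was called in KO at 48 h or for a difference in response. Against WT, 1 of these 3 was called lower in KO basal dishes, and none was called at 24 h or 48 h. The 3 tested erythroid genes fell as well at 48 h in both genotypes, with summed signals of 22.0 to 53.6 in KO 48 h against 49.5 to 87.2 in KO basal dishes, and 26.9 to 48.6 in WT 48 h against 52.0 to 93.6 in WT basal dishes. Whether loss of blood-derived cells shares in the falls was not tested. No lymphocyte gene of 9 measured passed the filter.

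Lysosomal genes did not rise as a group with Cd68. Of 27 tested in a list of lysosome genes that leaves Cd68 out, 3 rose and 2 fell in KO at 48 h, and 3 rose and 7 fell in WT. Their median differences were 0.04 in KO and -0.04 in WT, against 0.04 and 0.02 over all tested genes. Of all tested genes, 19.4% rose and 9.47% fell in KO at 48 h, and 20.5% rose and 15.7% fell in WT. The galactosidase Gla rose in both, by 0.78 ± 0.11 in KO and 0.62 ± 0.11 in WT (limma, adjusted p = 1.96e-06 and 4.00e-05), whereas the proton pump subunit Tcirg1 and the cathepsins Ctsc and Ctsz fell in WT by 0.53, by 0.49 and by 0.38 (adjusted p = 0.00969, 0.00189 and 0.0245). In KO against WT at 48 h 6 of the 27 were higher and 0 lower, led by the glucuronidase Gusb at 1.09 and Ctsz at 0.98 (limma, adjusted p = 2.97e-08 and 3.74e-07). At 24 h 5 were called higher and 4 lower, and in basal dishes 4 higher and 1 lower. Over all tested genes, 9.20%, 8.43% and 9.68% were called higher in basal, 24 h and 48 h dishes, and 18.7%, 17.8% and 14.4% lower.

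Genes for ligands of these receptors were measured in the same dishes. Cx3cl1, the ligand of Cx3cr1, rose by 0.30 and 0.45 in KO at 24 h and 48 h and by 0.27 and 0.56 in WT (SE 0.09 each; limma, adjusted p = 0.0188, 1.91e-04, 0.0299 and 6.53e-06), and was lower in KO at each time, by -0.46 at 48 h (adjusted p = 1.01e-04). Csf1, a ligand of Csf1r, was higher in KO by 0.45, 0.53 and 0.63 in basal, 24 h and 48 h dishes (SE 0.13 each; limma, adjusted p = 0.0112, 0.00321 and 5.12e-04), with no called change under BDNF at 24 h or 48 h. Cd47, a surface signal against uptake, rose by 0.42 in KO and 0.25 in WT at 48 h (limma, adjusted p = 9.11e-04 and 0.0340). Il34 and Tgfb1 did not pass the filter. Serping1, the inhibitor of the C1 complex, was the 1 tested gene of a complement list, and it was higher in KO by 1.13 in basal dishes and 1.16 at 48 h (limma, adjusted p = 9.58e-07 and 6.19e-07). At 24 h the difference was smaller, at 0.42, and also called. Under BDNF Serping1 was called lower in KO at 24 h (-0.66) and 48 h (-0.50) and in WT at 48 h (-0.525), and not in WT at 24 h (0.05).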

How the data were processed

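RNA from 30 dishes was hybridised to Affymetrix Mouse Genome 430A 2.0 arrays. The deposited values are signal intensity on a linear scale, computed with MAS5, per the submitters' processing notes; the authors' array median division and filter on present calls, described in the series' design text, are not visible in them. Each array was divided by its median, set to a floor of 0.1 and converted to log2. Probe sets with 1 symbol were used (20393; 691 with several and 1606 with none were left out), and 12394 genes were each read from their brightest probe set. Tests covered 7436 genes, the brightest 60%.

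A model with 6 group means was fitted with limma 3.58.1 in R 4.3.3 (empirical Bayes with an intensity trend) for 11 comparisons, two-sided, adjusted within each comparison. The same model was run without the filter, on all probe sets and on each gene minus Cd68. Residual correlations used 100000 permutations within groups. The fit was tested on simulated data. Arrays give no counts, and 5 dishes per group limit the precision. Sequences and coordinates are from RefSeq on GRCm38.p6. The 10 genes, the lists and the split of the 48 h dishes (replicates 1 and 2, and 3 to 5) were chosen with earlier results of these data known. Named were all 10 genes with their probe sets, up to 4 called genes per list with the largest change, the neighbours of Cd68 and the 8 genes most like Cd68 and like Csf1r. Alternatives changed the scaling, floor, filter, probe set rule, arrays in the fit, variance model, replicate block and dishes left out. No 2 arrays held identical values.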

Additional observations from a re-analysis of the deposited data

Results flagged for a closer look

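In 6 of 60 sets of 5 dishes (10 genes in 6 groups) 1 dish stood apart from its group by the gap to its nearest neighbour relative to the group's range; chance does so in about 1 in 20. Ms4a6b was high in KO basal replicate 1 (0.02, next -0.25) and in WT basal replicate 2 (0.33, next -0.07). Cd52 was high in WT basal replicate 1, at 1.36 against 1.08 in the next dish. Aif1 was low in WT 24 h replicate 2, at -1.34 against -0.78, and in WT 48 h replicate 1, at -1.45 against -0.78. C1qa was low in WT 24 h replicate 3, at -1.51 against -0.63. None was a Cd68 value.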

How the results depend on the processing

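No result changed direction with a call in any alternative. For Cd68, the rises at 24 h and 48 h against basal in both genotypes stayed called in each alternative that tested it; a filter that keeps the upper 40% of genes left it untested. The KO step from 24 h to 48 h lost its call with scaling to the 75th percentile (0.55), without the filter (0.61), with 48 h replicates 1 and 2 alone (0.68) or 3 to 5 alone (0.57), and without any of 5 of the 10 dishes (0.47 to 0.74 over all 10 left out in turn). The WT step was not called with 48 h replicates 1 and 2 alone (0.58), nor was KO minus WT at 48 h (-0.55). KO minus WT at 24 h was not called with values as deposited (-0.49). In basal dishes it became called with array weights (-0.45), and without WT basal replicate 4, with -0.58 to -0.25 over the dishes left out. Values as deposited shift the median of all genes at 48 h by 0.29 in KO and 0.34 in WT; with them WT Cd52 and Csf1r at 48 h lost their calls (-0.35 and -0.048), and Cd52, C1qa and C1qb were called higher in WT at 48 h than at 24 h (0.45, 0.59 and 0.40). C1qa and Tyrobp in KO against WT at 48 h lost their calls with array weights (0.49 and 0.40) and with 48 h replicates 3 to 5 alone (0.32 and 0.30). The cause was not tested. At 48 h 1443 genes were called higher and 704 lower in KO, and 1524 and 1169 in WT. These counts were 3686 and 45 in KO and 4286 and 92 in WT without rescaling, 1078 and 1185 in KO and 1171 and 1568 in WT with quantile normalization, and 980 and 1383 in KO and 1152 and 1736 in WT with the 75th percentile. Replicate numbers are shared by the groups, but same-numbered dishes did not deviate together in every pair (correlations of -0.17 to 0.28), and at most 5 of 10 arrays in a comparison correlated best with their own number, so the samples were not taken as pairs. With the number as a replicate block the Cd68 change in WT at 48 h was 1.87 (limma, adjusted p = 2.07e-08), no Cd68 call changed, and 1644 genes were called higher and 1205 lower in WT at 48 h. Signal below the filter bound limits Cx3cr1, Aif1 and Fcer1g, and the dimmer probe set of Cx3cr1 lay at or near the floor.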
